A study of Homo sapiens with 6 samples.

Results

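mRNAs of the RAB small GTPases were measured in ACHN, an established human line of renal cancer cells. Cells received either a control siRNA (a short RNA that silences matching transcripts) or an siRNA that targets OTUD1. The genes were taken by name, as rows called RAB with a number and at most a letter and a further digit, that had at least 10 counts in 3 or more libraries. Of 58735 rows, 64 fitted the name pattern and 53 met the minimum. Of these 53 genes, all annotated as protein coding, 52 had enough counts to be tested and 1, RAB7B, did not. RNA was sequenced from 3 libraries of control siRNA cells and 3 of OTUD1 siRNA cells, all cultured in minimum essential medium with serum. The labels name neither the siRNA sequences, nor the time after transfection, nor separate cultures, so a p-value here measures just the spread among the 6 libraries, which may be technical. Because bulk RNA was measured, fewer cells carrying a transcript and less of it per cell cannot be told apart.

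RAB proteins are the largest branch of the RAS superfamily and act as switches on the membranes of the secretory and endocytic pathways. An exchange factor loads a RAB with GTP on its target membrane, the active form recruits effectors such as tethers, motors and kinases, and a GTPase-activating protein turns it off. Escort proteins and a geranylgeranyl transferase attach the lipid anchors that hold a RAB in the membrane, and carrier proteins take the inactive form through the cytosol. In kidney epithelium these switches steer receptor uptake, recycling to either cell surface and the transport of membrane to the primary cilium.

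OTUD1, the deubiquitinase that the siRNA targets, had 61, 67 and 65 counts in the control libraries and 28, 17 and 25 after OTUD1 siRNA. The groups did not overlap, and the log2 fold change of OTUD1 siRNA over control siRNA was -1.69 (SE 0.24, adjusted p = 4.37e-07 by the quasi-likelihood test of edgeR). Library totals lay between 16753495 and 21013530 counts, at which 3 counts correspond to 0.137 to 0.188 CPM, the counts relative to library size scaled by TMM. The marker counts that follow are read beside all 15244 genes tested, of which 31.1% were lower and 29.3% higher. Of 13 renal tubule markers 10 were tested, of which 6 were lower and 4 higher, and LRP2 was at 0 in every library. Their summed level went from a range of 6951 to 7221 CPM in the control libraries to 3776 to 3893 CPM, most of it KRT8 and KRT18. Fibroblast and endothelial markers summed to 306 to 317 CPM and then 173 to 186 CPM, most of it THY1, with 5 of 11 tested and 2 in each direction called. Leukocyte markers summed to 1.75 to 1.93 CPM and 1.44 to 2.11 CPM, with 2 of 11 tested. PTPRC, CD3E, CD3D, MS4A1 and LYZ were at 0. The 1 called higher, CD8A, had 4, 4 and 1 counts in the control libraries and 16, 12 and 11 after OTUD1 siRNA. The part of these marker shifts in the RAB values below was not tested.

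Some of the RAB mRNAs that fell share a short stretch in their 3′ untranslated region (UTR). The 7-mers CAAACAA and AAACAAA, which overlap each other by 6 bases, were taken from earlier results of these same libraries, in which genes holding them tended to be lower, so the comparison is a description and no independent evidence. Sites of the called members that fell by at least 0.7 on the log2 scale and hold CAAACAA are printed, with the site of RAB39B as the called member that rose and holds it. Each line gives 29 bases of the transcript, 5′ to 3′, from GENCODE 29 (hg38), with CAAACAA in capitals.
RAB10 site 1, chr2:26135194-26135222, plus strand: ataattttcttCAAACAAaaaaatgtata
RAB10 site 2, chr2:26136727-26136755, plus strand: gctcacataagCAAACAAcatagggacgt
RAB6A site 1, chr11:73677423-73677451, minus strand: cttcctcaaaaCAAACAAgagatggcaaa
RAB6A site 2, chr11:73676385-73676413, minus strand: ttaaaacactgCAAACAAatatactagga
RAB3B, the site nearest the stop codon of 8, chr1:51917270-51917298, minus strand: agttgatccacCAAACAAacctgagagat
RAB35, chr12:120095187-120095215, minus strand: gaaattcctgtCAAACAAacaccactttt
RAB14, chr9:121179492-121179520, minus strand: caaaaacaaaaCAAACAAaccacccattg
RAB39B, chrX:155258837-155258865, minus strand: gttgtaaaagaCAAACAAaacatggcaaa
The 2 RAB10 sites printed, of 3, lie at bases 184 and 1717 of a 3′ UTR of 2433 bases, and the site between them, at base 444, is not printed. Beyond the 7-mer the flanks of the printed sites are not the same as a whole, but parts of them recur. RAB6A site 1 and the site of RAB39B, which rose, both end in atggcaaa, and such sharing was not tested.

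Across the 52 tested RAB genes, 24 were lower and 7 higher after OTUD1 siRNA, and 21 did not pass the test. Among all 15244 genes tested, 31.1% were lower and 29.3% higher, so the lower calls made up a larger share of the RAB genes (46.2%) and the higher calls a smaller one (13.5%) than of all genes, a difference that was not tested. The share called in either direction, 59.6%, was close to the 60.4% of all genes. Called log2 fold changes reached a size of 0.5 or more in 16 lower and 5 higher RAB genes, against 13.6% and 14.4% of all genes. The groups of libraries did not overlap for 32 of the 52 RAB genes and for 64.5% of all genes. The median log2 fold change was -0.16 over the RAB genes, with a range from -1.60 to 0.83, and 0.01 over all genes. When libraries were scaled by their totals, the median of all genes moved up by 0.129, calls over all genes went from 48.4% to 64.2% higher, and RAB calls went to 15 higher and 21 lower with a median of -0.03. Of the 31 called members, 25 kept their call under every other setting in which they were tested, and the 6 that lost it under at least 1 setting are RAB5C, RAB11B, RAB13, RAB15, RAB33B and RAB40B.

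**Figure D1:**
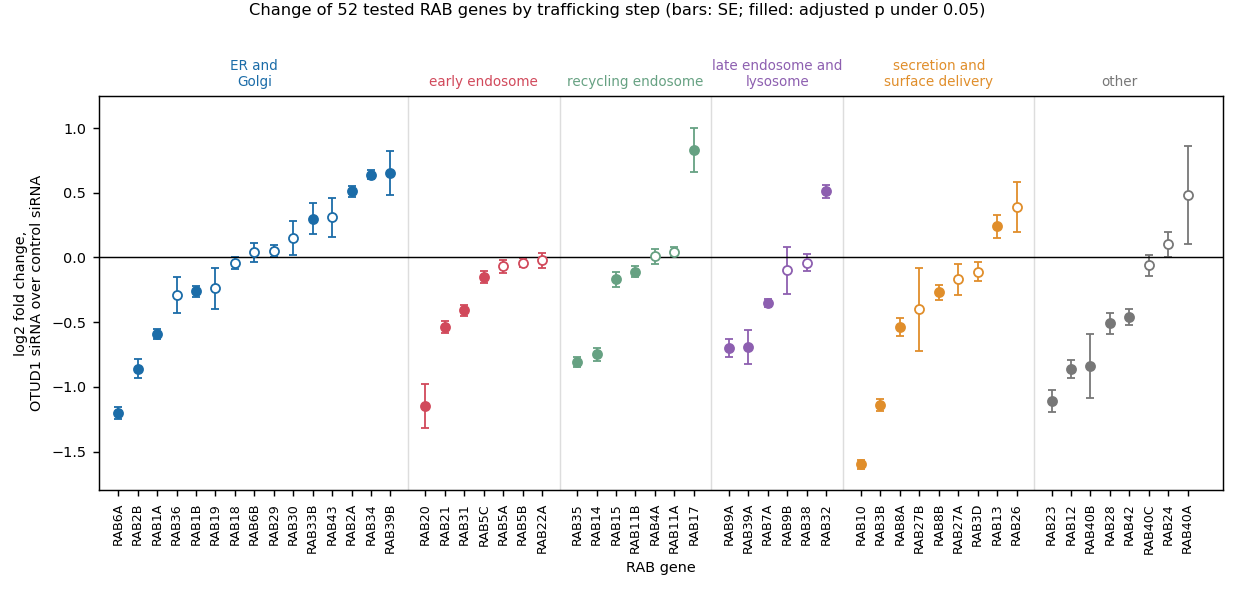
Log2 fold change (vertical axis, OTUD1 siRNA over control siRNA) of the 52 tested RAB genes, grouped by trafficking step and ordered within each step, with bars for the SE and filled points for an adjusted p under 0.05. RAB10 is lowest at -1.60 and RAB17 highest at 0.83.

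Genes were assigned to steps by where each protein is best known to work. Their shares are read beside the 29.3% higher and 31.1% lower of all genes tested. The ER and Golgi held 15 tested genes with 4 higher, 4 lower (26.7% each) and a median log2 fold change of 0.04. Both shares were slightly below those of all genes. Early endosomes held 7, with 4 lower (57.1%) and none higher. Recycling endosomes also held 7, with 4 lower (57.1%) and 1 higher (14.3%). Late endosomes and lysosomes held 6, with 3 lower and 1 higher (16.7%). Secretion and surface delivery held 9, with 4 lower (44.4%) and 1 higher (11.1%). The remaining genes were 8, with 5 lower (62.5%) and none higher. The medians of these 5 groups were -0.15, -0.11, -0.22, -0.27 and -0.48. In each of them the share lower was above, and the share higher below, that of all genes. For recycling endosomes the share lower rests in part on RAB11B and RAB15, whose calls were lost under other settings. No test of a difference between steps, or of a step from all genes, was made. With 6 to 15 genes a step each count and share rests on few genes.

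At the ER and Golgi RAB2A, RAB34, RAB39B and RAB33B rose, while RAB6A, RAB2B, RAB1A and RAB1B fell. RAB6A, which acts in traffic from endosomes to the Golgi, within the Golgi and from Golgi to cell surface, was at 108, 114 and 110.1 CPM in the control libraries. It was at 48.6, 48.9 and 47.4 CPM in the OTUD1 siRNA libraries (log2 fold change -1.20, SE 0.046, adjusted p = 4.8e-19). Every OTUD1 siRNA library was below every control library, by more than 2-fold between the means (2.29-fold). The gene (ENSG00000175582.19) spans chromosome 11, 73675638 to 73761137, on the minus strand of hg38, and its exons share 425 bases with an antisense transcript. RAB6B, its isoform best known from neurons, gave 21.3, 23.6 and 22.5 CPM and then 23.3, 23.1 and 23.1 CPM, and its log2 fold change of 0.04 did not pass the test (SE 0.074, adjusted p = 0.65).

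RAB2A and RAB2B both serve the intermediate compartment between ER and Golgi. RAB2A was at 86.9, 97.8 and 95 CPM and then at 131, 137 and 130 CPM, a rise of 0.51 (SE 0.044, adjusted p = 4.46e-11). RAB2B was at 29.5, 30.7 and 30.4 CPM and then at 17.1, 16.5 and 16.2 CPM (log2 fold change -0.86, SE 0.074, adjusted p = 3.38e-11). The groups did not overlap for either gene. RAB2B shares 124 exon bases with TOX4 on the opposite strand.

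RAB1A and RAB1B, which admit ER-derived vesicles to the Golgi, both fell. RAB1A went from 204, 196 and 194 CPM to 131, 135 and 128 CPM (log2 fold change -0.59, SE 0.037, adjusted p = 3.96e-14). RAB1B, at 149, 131 and 142 CPM in the control libraries and 117, 119 and 117 CPM after OTUD1 siRNA, changed less (log2 fold change -0.26, SE 0.043, adjusted p = 7.49e-06). The libraries of the 2 groups were apart for both. RAB1A shares 757 exon bases with CEP68 and RAB1B 589 with an antisense transcript, each on the opposite strand. How reads that fit both genes of such a pair were counted was not given in the sources used here.

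RAB34, a Golgi-associated protein known for lysosome positioning and for an early step of cilium formation, had the largest rise in CPM. It was at 224, 229 and 235 CPM and then at 354, 348 and 371 CPM (log2 fold change 0.64, SE 0.034, adjusted p = 6.62e-16). Each OTUD1 siRNA library was more than 100 CPM above every control library. RAB34 (ENSG00000109113.19) lies on chromosome 17, 28714281 to 28718429, minus strand. Its relative RAB36 was at 6.82, 5.56 and 6.66 CPM and then 5.2, 5.11 and 5.17 CPM, and its log2 fold change of -0.29 did not pass the test (adjusted p = 0.0716).

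RAB39B, mutated in an X-linked form of intellectual disability, rose from 4.51, 4.85 and 3.09 CPM to 6.34, 7.6 and 5.61 CPM (log2 fold change 0.65, SE 0.17, adjusted p = 0.00121). RAB33B, which binds the autophagy protein ATG16L1, had a log2 fold change of 0.30 (SE 0.12, adjusted p = 0.0327), but its control library 2, at 12.7 CPM, lay inside the OTUD1 siRNA range of 12.2 to 12.8 CPM. The call was lost without control replicate 1 or 3, without OTUD1 siRNA replicate 1 or 2, and with DESeq2. The 7 ER and Golgi genes that did not pass the test ran from -0.29 for RAB36 to 0.31 for RAB43. RAB18, tied to lipid droplets, was at -0.04 and RAB29, which recruits the kinase LRRK2 to membranes, at 0.05, with RAB30 at 0.15 and RAB19 at -0.24. RAB43 shares 3956 of its 4991 exon bases with the read-through gene ISY1-RAB43 on the same strand, so reads there cannot be assigned to 1 of them.

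Among early endosome genes RAB20, RAB21 and RAB31 fell, and the RAB5 paralogs, which drive homotypic fusion and cargo sorting, had log2 fold changes between -0.15 and -0.04. RAB21, which binds integrin tails and guides integrin uptake, was at 109, 103 and 105 CPM and then at 76.2, 73.8 and 68.1 CPM (log2 fold change -0.54, SE 0.047, adjusted p = 5.51e-11). It shares 1431 exon bases with a long non-coding RNA gene on the opposite strand. RAB20, a phagosome-associated RAB also known as a hypoxia-induced gene, was at 7.82, 6.39 and 5.55 CPM and then at 3.19, 2.83 and 2.83 CPM. That was a log2 fold change of -1.15 (SE 0.17, adjusted p = 7.69e-07), and the groups were apart although the control libraries spread more than those of the OTUD1 siRNA. The control libraries held 95 to 125 RAB20 counts each and the OTUD1 siRNA libraries 51 to 70. RAB31, which moves cargo between the trans-Golgi network and endosomes, had a log2 fold change of -0.41 (SE 0.045, adjusted p = 5.29e-09).

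RAB5C, the most abundant early endosome RAB per kilobase, was at 96.6, 89.0 and 93.0 CPM and then at 84.3, 82.5 and 84.8 CPM. Its log2 fold change of -0.15 (SE 0.044, adjusted p = 0.00537) lost its call with library totals (-0.02) and quantile normalization (-0.05). RAB5A, RAB5B and RAB22A had log2 fold changes of -0.07, -0.04 and -0.02 and did not pass the test. RAB5C shares 794 exon bases with another gene on the same strand.

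At recycling endosomes RAB35 and RAB14 fell, RAB17 rose, and the RAB11 pair that marks this compartment had log2 fold changes of -0.11 and 0.04. RAB35, which returns cargo rapidly to the cell surface and acts in cytokinesis, was at 162, 156 and 159 CPM and then at 89.9, 91.7 and 89.6 CPM (log2 fold change -0.81, SE 0.039, adjusted p = 7.02e-17). Its exons share 596 bases with an antisense transcript. RAB14, which works between the trans-Golgi network and endosomes, was at 84.2, 84.7 and 87.6 CPM and then at 49.0, 52.9 and 50.8 CPM (log2 fold change -0.75, SE 0.049, adjusted p = 8.78e-14). The spread within each group was small beside the distance between the means, which were 159 and 90.4 CPM for RAB35 and 85.5 and 50.9 CPM for RAB14.

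RAB17, an epithelial RAB of transcytosis, was low, at 3.32, 3.47 and 2.39 CPM and then 5.88, 5.11 and 5.28 CPM. Its log2 fold change of 0.83 (SE 0.17, adjusted p = 0.000141) was the highest of all RAB genes, from 41 to 63 counts in each control library and 95 to 129 in each OTUD1 siRNA library. RAB11B was at 112, 106 and 102 CPM and then at 96.6, 96.8 and 104 CPM, so the groups overlapped (log2 fold change -0.11, SE 0.044, adjusted p = 0.0362). Its call was lost under 8 settings, among them library totals, where the value became 0.02. RAB11A, at 157, 166 and 165 CPM and then 163, 163 and 175 CPM, did not pass the test (log2 fold change 0.04, adjusted p = 0.396), but passed it with a minimum mean of 5 CPM (0.09), library totals (0.17) and quantile normalization (0.17). RAB15 was at -0.17 (adjusted p = 0.00992), a call lost under 5 settings (library totals, quantile normalization, a minimum mean of 5 CPM, and without control replicate 3 or OTUD1 siRNA replicate 2), and RAB4A, of the rapid recycling route, at 0.01.

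In late endosomes and lysosomes RAB7A, the RAB that recruits motors and tethers for fusion with lysosomes, was at 347, 338 and 340.3 CPM and then at 268, 275 and 264 CPM (log2 fold change -0.35, SE 0.032, adjusted p = 1.38e-10). Per kilobase of exon it was the most abundant RAB mRNA of the control libraries. RAB9A, which returns hydrolase receptors from late endosomes to the trans-Golgi network, went from 40.3, 38.9 and 41.0 CPM to 26.5, 24.2 and 23.1 CPM (log2 fold change -0.70, SE 0.067, adjusted p = 3.04e-10). All OTUD1 siRNA libraries lay below all control libraries for both genes.

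RAB32 and RAB38 supply lysosome-related organelles such as melanosomes. RAB32 rose from 79.5, 67.3 and 74.0 CPM to 105, 104 and 104 CPM (log2 fold change 0.51, SE 0.049, adjusted p = 4.39e-10), and its control libraries spread over a wider range than the OTUD1 siRNA libraries. RAB38 was at 34.4, 30 and 32.2 CPM and then at 29.8, 32.9 and 31.2 CPM, and the groups overlapped (log2 fold change -0.04, adjusted p = 0.633). RAB39A, described on phagosomes, fell from 7.89, 7.54 and 8.53 CPM to 4.97, 5.11 and 4.72 CPM (log2 fold change -0.69, SE 0.13, adjusted p = 5.02e-05), and RAB9B was at -0.10. RAB7B had 40 counts in control cells and 22 after OTUD1 siRNA, each summed over 3 libraries, a ratio of 0.469 with a 95% exact binomial interval of 0.266 to 0.809 that covers counting error only.

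In secretion and delivery to the cell surface RAB10 had the largest fall of any RAB gene. RAB10, which brings vesicles to the basolateral surface of epithelia and the glucose transporter GLUT4 to the surface of fat cells, was at 368, 368 and 356 CPM in the control libraries. It was at 122, 119 and 121 CPM in the OTUD1 siRNA libraries, a 3.02-fold lower level (log2 fold change -1.60, SE 0.034, adjusted p = 5.83e-25). The gap between the groups was many times the spread within them. The gene (ENSG00000084733.10) lies on chromosome 2, 26034107 to 26137454, plus strand, and its exons overlap no other annotated gene.

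RAB3B, of regulated exocytosis, fell from 147, 149.6 and 146 CPM to 69.9, 66.4 and 63.7 CPM (log2 fold change -1.14, SE 0.043, adjusted p = 2.96e-19). RAB3B (ENSG00000169213.6) lies on chromosome 1, 51907956 to 51990764, minus strand. RAB8A, which delivers membrane to the apical surface and the cilium, was at 35.7, 35.7 and 38.5 CPM and then at 26.9, 23.1 and 25.6 CPM (log2 fold change -0.54, SE 0.069, adjusted p = 9.93e-08). It shares 1960 exon bases with an antisense transcript. RAB8B was at -0.27 (SE 0.057, adjusted p = 0.000156).

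RAB13, a tight junction RAB, was the called rise of this step at 0.24 (adjusted p = 0.0211). It shares 682 exon bases with another gene on the same strand, and the call was lost without control replicate 2 or 3 and without OTUD1 siRNA replicate 1 or 2. The secretory granule and exosome genes did not pass the test, with RAB27A at -0.17, RAB27B at -0.40, RAB3D at -0.11 and RAB26 at 0.39. RAB27B had 15 to 25 counts per library, so a change of its size was not detectable at this depth. RAB26 passed the test at 0.54 without control replicate 2, at 0.51 without OTUD1 siRNA replicate 2 and at 0.52 with library totals.

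Among genes outside these steps RAB23, which restrains Hedgehog signalling at the cilium, was at 27.5, 31.6 and 30.8 CPM and then at 14.5, 12.7 and 14.5 CPM (log2 fold change -1.11, SE 0.083, adjusted p = 1.79e-12). Its exons share 2842 bases with BAG2 on the opposite strand, and since the strand setting of the counting is not given, its counts may hold reads of BAG2. RAB12, which sends transferrin receptor to degradation, went from 36.1, 34.1 and 35.3 CPM to 19.0, 19.7 and 19.3 CPM (log2 fold change -0.86, SE 0.069, adjusted p = 7.33e-12). RAB28, mutated in a cone-rod dystrophy, went from 21.5, 23.4 and 22.8 CPM to 15.4, 16.1 and 16.3 CPM (log2 fold change -0.51, SE 0.081, adjusted p = 4e-06). For these 3 genes the groups did not overlap.

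RAB42, the most abundant of the remaining genes per kilobase, went from 36.9, 36.3 and 38.8 CPM to 26.6, 28.6 and 26.1 CPM (log2 fold change -0.46, SE 0.065, adjusted p = 4.62e-07). RAB40B, which joins a cullin ubiquitin ligase through a SOCS box, was at 3.38, 2.81 and 4.26 CPM and then at 1.28, 2.88 and 1.67 CPM. Its groups overlapped, and the call (log2 fold change -0.84, SE 0.25, adjusted p = 0.00478) was lost without OTUD1 siRNA replicate 1 (-0.60, adjusted p = 0.0546). RAB40A, RAB40C and the autophagy-linked RAB24 did not pass the test, at 0.48, -0.06 and 0.10. Over all RAB genes, 26 of 53 shared exon bases with another annotated gene, 21 of them with a gene on the opposite strand and 9 with a gene on the same strand.

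**Figure D2:**
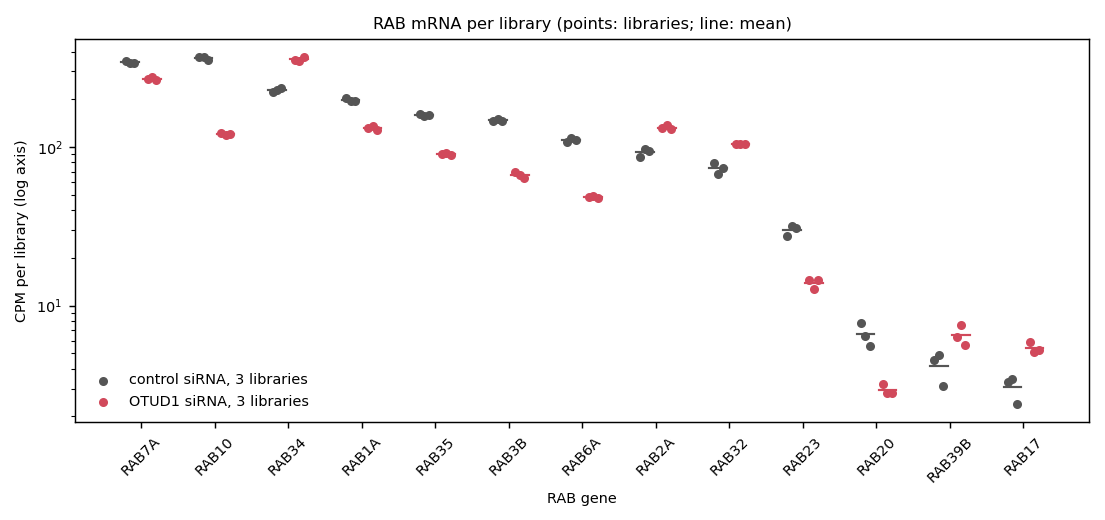
CPM on a log axis of 13 RAB genes, one point per library, with the mean of 3 libraries as a line, control siRNA beside OTUD1 siRNA. RAB10 drops from 356 to 368 CPM to 119 to 122 CPM, and RAB34 rises from 224 to 235 CPM to 348 to 371 CPM.

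Levels of different genes were compared as CPM per kilobase of annotated exon. In the control libraries the order was RAB7A (126), RAB10 (100.3), RAB1B (70.2), RAB34 (69.0), RAB32 (60.5) and RAB1A (59.8 CPM per kilobase). After OTUD1 siRNA it was RAB34 (108), RAB7A (99), RAB32 (86.0), RAB1B (58.7), RAB11B (40.1) and RAB1A (39.7), with RAB10 in place 7 at 33.2 CPM per kilobase. The control levels of RAB1B and RAB34, with SDs of 4.63 and 1.56 over 3 libraries, do not differ beyond their spread, and neither do those of RAB32 (SD 5.02) and RAB1A (SD 1.70). With the length of the longest coding transcript in place of all exons, the control order began RAB7A (152), RAB34 (129.8) and RAB10 (103 CPM per kilobase). RAB10 made up 9.89% to 10.3% of the summed RAB level of a control library and 3.87% to 3.97% of an OTUD1 siRNA library. For RAB34 the shares were 6.71% to 7.11% and 12.4% to 13.2%.

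The summed level of all 52 genes was 1004, 984 and 992 CPM per kilobase in the control libraries and 843, 845 and 847 in the OTUD1 siRNA libraries, so the mean fell by 14.9%. Secretion and surface delivery fell most, from 145 ± 3.1 to 68.6 ± 0.748 CPM per kilobase (SD, n = 3). The ER and Golgi sum was 292 ± 2.61 and 290.1 ± 1.75, and overlapped between groups. Within it RAB34 rose from 69.0 to 108 and RAB2A from 16.5 to 23.5. RAB1B went from 70.2 to 58.7, RAB1A from 59.8 to 39.7 and RAB6A from 22.6 to 9.86. The ER and Golgi sum thus holds both rises and falls of its members. The sums of early endosomes went from 106 ± 0.134 to 92.9 ± 0.992, of recycling endosomes from 157 ± 0.194 to 129 ± 2.4, and of the remaining genes from 59.9 ± 0.714 to 42.6 ± 0.331. Late endosomes and lysosomes went from 233 ± 8.54 to 222 ± 2.95, with control library 2 and OTUD1 siRNA library 2 both at 224. RAB10 was 100.3 of the 145 CPM per kilobase of the secretion sum in the control libraries and 33.2 of the 68.6 after OTUD1 siRNA. Without it, an exclusion chosen after its values were seen, the sum went from 44.9 ± 1.32 to 35.4 ± 0.683, and that of all remaining RAB genes from 893 to 812 CPM per kilobase. RAB10 is also described at recycling endosomes, and the assignment to steps decides where its fall is counted. The same holds for the rise of RAB34, which an alternative assignment places among the remaining genes.

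**Figure D3:**
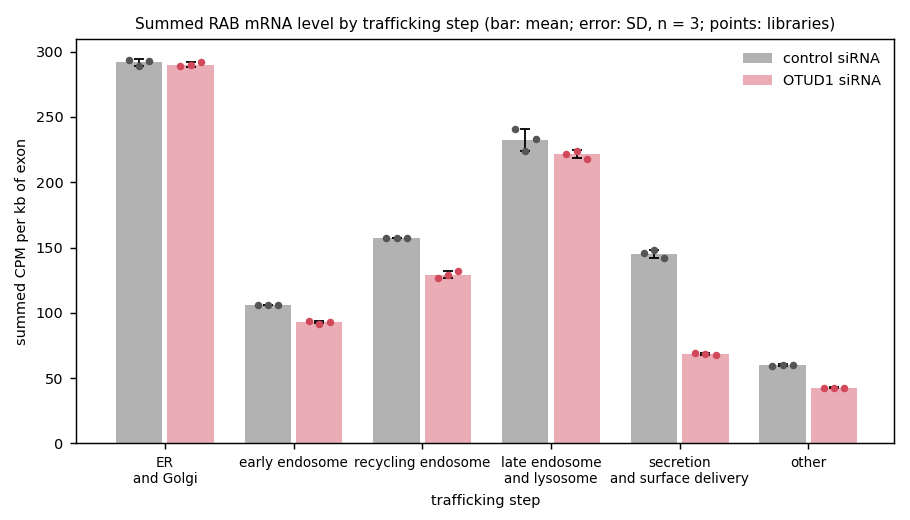
Summed level in CPM per kilobase of exon (vertical axis, from 0) of the RAB genes of each trafficking step, with bars for the mean, error bars for the SD of 3 libraries and points for libraries. The secretion and surface delivery sum goes from 145 to 68.6. The ER and Golgi sums of 292 and 290.1 overlap, with RAB34 rising and RAB1A, RAB1B and RAB6A falling within them.

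The balance between close paralogs was compared as the log2 ratio of their CPM within each library. Of 23 possible pairs, 11 had a mean of at least 5 CPM for both genes and log2 fold changes in opposite called directions or at least 0.5 apart. RAB10 to RAB13 went from 4.43, 4.61 and 4.55 to 2.64, 2.66 and 2.80, a change of -1.83. The RAB6A to RAB6B ratio went from 2.34, 2.27 and 2.29 to 1.06, 1.08 and 1.04. These shifts left RAB10 and RAB6A still the higher of their pairs in CPM.

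RAB39A to RAB39B changed sign, from 0.81, 0.64 and 1.46 to -0.35, -0.57 and -0.25. The gene with more counts was thus RAB39A in each control library and RAB39B in each OTUD1 siRNA library. Per kilobase of exon the mean levels were 4.36 for RAB39A and 1.18 for RAB39B in the control libraries. They were 2.7 and 1.86 after OTUD1 siRNA, so on that scale RAB39A stayed the higher. RAB2A to RAB2B went from 1.56, 1.67 and 1.64 to 2.94, 3.05 and 3.0. RAB3B to RAB3D changed by -1.04, RAB8A to RAB13 by -0.78, RAB8B to RAB13 by -0.50, RAB32 to RAB38 by 0.55, RAB34 to RAB36 by 0.93, RAB8A to RAB10 by 1.05 and RAB8B to RAB10 by 1.33. The groups did not overlap for any of the 11 pairs. The exact two-sided permutation p was 0.1 for each pair and 0.1 after Benjamini-Hochberg adjustment over the 11 pairs, which is the smallest that 3 against 3 libraries allow, so no pair could pass a threshold of 0.05. The pairs were chosen partly by these same changes, and pairs that share RAB10 or RAB13 are not independent.

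**Figure D4:**
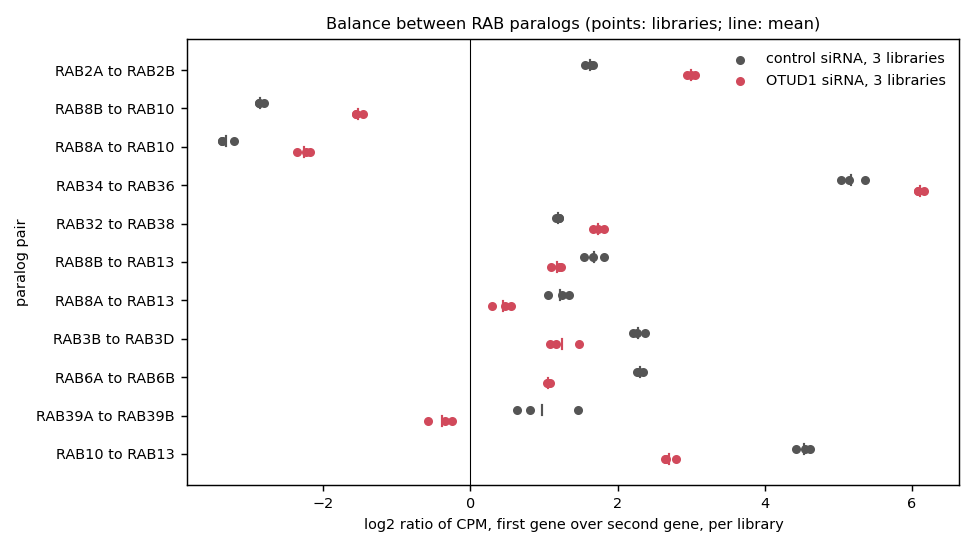
Log2 ratio of CPM of the first over the second gene of 11 RAB paralog pairs (horizontal axis), one point per library with the mean as a line. RAB39A to RAB39B crosses 0, from a mean of 0.97 in the control libraries to -0.39 after OTUD1 siRNA. The CPM are not divided by gene length, and per kilobase of exon RAB39A stays the higher in both groups.

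The 3′ UTR of the principal annotated transcript was searched on the transcript strand for the 7-mers printed above, in 52 tested RAB genes and 12408 genes overall. CAAACAA was held by 16 RAB genes (30.8%) and 14% of all genes. Of these 16, 9 were lower (56.2%) and 1, RAB39B, was higher, with a median log2 fold change of -0.37. A further 9 RAB genes held AAACAAA alone, with 6 lower (66.7%), none higher and a median of -0.54. The 27 RAB genes with neither 7-mer had 9 lower (33.3%) and 6 higher, with a median of -0.10. Over all genes the lower calls made up 54% of the genes with CAAACAA, 45.1% of those with AAACAAA alone and 29.1% of those with neither, with medians of -0.25, -0.13 and 0.03. The shares lower of the RAB genes with CAAACAA and with neither were thus near those of all genes in the same class.

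Genes with a 7-mer also had longer 3′ UTRs, with a median of 3711 bases for RAB genes holding CAAACAA and 932 for those with neither. Among RAB genes with a 3′ UTR of at least 1500 and under 4000 bases, the 7 with CAAACAA had 6 lower and a median of -0.75, and the 9 with neither had 1 lower and a median of -0.10. Over all genes of that length, 59.4% with CAAACAA and 32.3% with neither were lower. Under 1500 bases, 8 of the 18 RAB genes with neither were lower (44.4%, against 28.1% of all such genes), and the 1 RAB gene with CAAACAA, RAB7A, was lower. Among those of 4000 bases or more, the 8 with CAAACAA had 2 lower (25.0%, against 49.2% of all such genes). Their median was -0.04, against -0.19 for all such genes. No RAB gene of that length lacked both 7-mers. RAB20 fell without holding either 7-mer. The CAAACAA holders RAB5B (-0.04), RAB18 (-0.04, 2 sites), RAB22A (-0.02), RAB6B (0.04) and RAB30 (0.15) did not pass the test. RAB27B (-0.40, 3 sites) did not pass it either, but had just 15 to 25 counts per library. A match is a run of letters and no measured site, and its part in the changes was not tested.

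**Figure D5:**
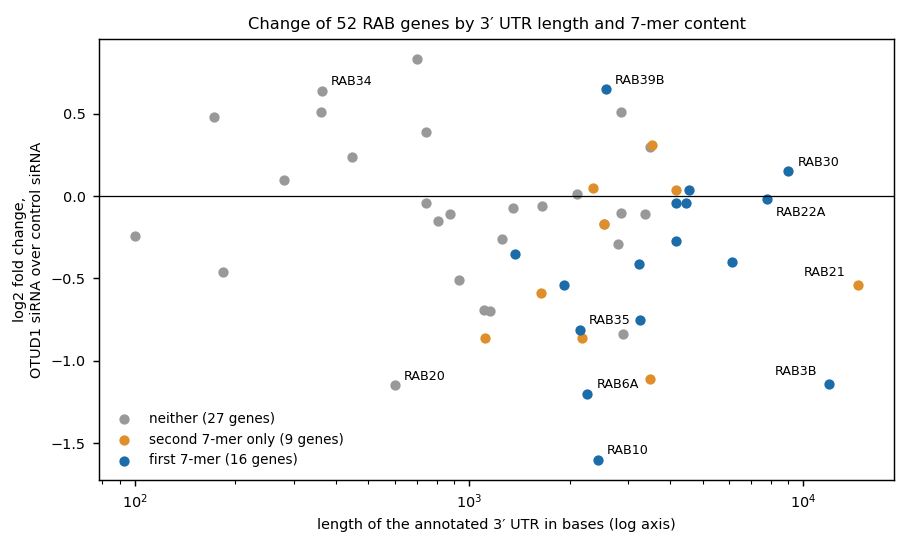
Log2 fold change (vertical axis) of 52 RAB genes against the annotated 3′ UTR length in bases (log axis), coloured by 7-mer content, where the first 7-mer is CAAACAA and the second AAACAAA. The 16 genes with the first 7-mer have a median of -0.37 and the 27 with neither a median of -0.10.

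The regulator lists are read against the same 29.3% higher and 31.1% lower of all genes tested. The machinery that lipid-modifies and delivers RAB proteins had 9 genes, of which 2 were higher and 4 lower. PDE6D, a carrier of prenylated proteins, fell from 38.8 ± 1.72 to 26.0 ± 0.863 CPM (SD, n = 3; log2 fold change -0.58, adjusted p = 7.43e-09). RABGGTB, the catalytic subunit of RAB geranylgeranyl transferase, was at -0.29 (adjusted p = 4.42e-05), and the escort protein CHM at -0.28 (adjusted p = 0.00303). CHML, the other escort protein, was higher by 0.18 (adjusted p = 0.0474).

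Among 51 exchange factors, 24 were higher (47.1%, against 29.3% of all genes) and 12 lower (23.5%, against 31.1%), with a median log2 fold change of 0.14. DENND5A, of the DENN-domain family of exchange factors, rose from 68.3 ± 2.94 to 115 ± 2.09 CPM (SD, n = 3; log2 fold change 0.75, adjusted p = 1.17e-14). The TRAPP complex subunits TRAPPC1 and TRAPPC2L, whose complex activates RAB1, rose by 0.56 and 0.52. Of all 14 TRAPP subunits on the list, 7 were higher and 3 lower, the lower ones, named after their values were seen, being TRAPPC13 (-0.68), TRAPPC10 (-0.24) and TRAPPC8 (-0.19). DENND2D, GAPVD1 and RIN1, the last being an exchange factor for RAB5, were lower, at -0.55, -0.48 and -0.47. Of 35 tested GTPase-activating proteins of 37 listed, 11 were higher (31.4%) and 13 lower (37.1%), with a median of 0.05. TBC1D10B, which is known to act on RAB35, rose from 31.7 ± 1.88 to 59.2 ± 0.925 CPM (SD, n = 3; log2 fold change 0.90, adjusted p = 6.86e-14). TBC1D9B and RAB3GAP1 rose by 0.60 and 0.48. TBC1D8 fell from 90.1 ± 1.62 to 49.4 ± 2.23 CPM (log2 fold change -0.87, adjusted p = 3.27e-15), with USP6NL at -0.55 and TBC1D14 at -0.44.

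Of 55 tested effectors and RAB-binding proteins of 57 listed, 19 were higher (34.5%) and 18 lower (32.7%), close to the 29.3% and 31.1% of all genes, with a median of 0.02. CORO1C, an actin-binding coronin that was on this list, fell from 632 ± 7.46 to 129 ± 2.88 CPM (SD, n = 3; log2 fold change -2.29, SE 0.032, adjusted p = 3.01e-29). ANKFY1, a RAB5 effector, was at -0.86 and SYTL2, a RAB27 effector, at -0.56. BICD2, the adaptor that links RAB6 vesicles to dynein, rose from 22.7 ± 0.929 to 48.8 ± 2.2 CPM (log2 fold change 1.10, SE 0.064, adjusted p = 6.49e-15), while RAB6A itself fell. GOLGA2, the Golgi tether GM130, rose by 0.85 and PLEKHM2, an adaptor of lysosome transport, by 0.76.

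The minimum of counts left out 11 named RAB genes. RAB7B, with 3 to 16 counts per library, and RAB40A, with 10 to 25, were the members nearest to it. RAB37 with 45 counts over 6 libraries, RAB41 with 43 and RAB3A with 42 lay just outside, and the others outside it ran from 1 to 39 counts.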

How the data were processed

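RNA-seq of 3 control siRNA and 3 OTUD1 siRNA libraries of ACHN cells was used. The deposited table holds whole-number counts per gene symbol; the name of the table speaks of FPKM, but its values are whole and sum to a different total in each library, so they were used as raw counts. Per the labels' protocols, libraries were made with a directional kit, and per the submitters' processing notes the build is hg38. Which aligner, counting tool, strand setting and annotation were used was not given in the sources used here. Gene models, lengths and 3′ UTRs were taken from GENCODE 29, which held 15215 of the 15244 tested symbols, and 1745 of the 58735 rows share a symbol with another row.

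Genes were filtered with filterByExpr (minimum count 10, minimum total 15), scaled by TMM (factors 0.9549 to 0.9572 in control and 1.045 to 1.046 in OTUD1 siRNA libraries) and compared with the quasi-likelihood test of edgeR 4.0.16 in R 4.3.3, with two-sided p-values adjusted by Benjamini and Hochberg's method over the 15244 genes and called under 0.05. The biological coefficient of variation was 3.78%. Levels are CPM on the scaled library size. Summaries and permutation tests used Python 3.11.15 and scipy 1.17.1. The fit was tested on simulated data. No library was a copy of another, since a chi-square of counts averaged 2.05 to 3.8 within and 47.9 to 57.1 across groups, above the sampling noise.

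The RAB genes, the steps, the regulator lists and the 7-mers were chosen with earlier results of these data known. Full values were given for members called with a change of at least 0.5 and for the most abundant member of each step, and up to 3 called genes per direction with the smallest adjusted p from each list; a few items under this rule are not reported here. Alternatives were other filters, scalings, limma 3.58.1, DESeq2 1.42.0, the replicate block, each replicate left out, a second step for members known at 2 sites, and transcript length.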

Additional observations from a re-analysis of the deposited data

How the results depend on the processing

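Precision is limited by 3 libraries per group and, for low genes such as RAB40A and RAB27B, by counts of 10 to 25 per library. With library totals 15 RAB genes were called higher and the median log2 fold change was -0.03. Over all genes this setting gave a median of 0.134, with 40.6% called higher and 22.7% lower. ER and Golgi had 7 higher and a median of 0.17, early endosomes 1 higher and -0.02, recycling endosomes 3 higher, 2 lower and 0.02 (reversed), late endosomes and lysosomes -0.10, secretion 2 higher and -0.14, and the remaining genes 1 higher and -0.35. Prenylation had 4 higher, 2 lower and a median of 0.00, exchange factors 7 lower and 0.27, GTPase-activating proteins 6 lower and 0.18, and effectors 11 lower and 0.14. With quantile normalization the medians were -0.12 for all RAB genes, 0.08 for ER and Golgi, -0.05 for early endosomes (1 higher), 0.00 for recycling endosomes (2 higher, 2 lower) and 0.08 for effectors. With a minimum mean of 5 CPM they were -0.12 for all RAB genes, 0.09, -0.06 and -0.30 for ER and Golgi, early and late endosomes, 0.18 for exchange factors and 0.06 for effectors, with 2 recycling genes lower and 4 prenylation genes higher. Without a filter the RAB median was -0.18 and that of late endosomes -0.35, and 1 prenylation gene was higher, as with DESeq2 (1). With the second step for members known at 2 sites, ER and Golgi had a median of -0.25 (reversed), early endosomes -0.11, recycling 2 higher, 7 lower and -0.17, late endosomes 0 higher, secretion 1 lower and -0.11, and the remaining genes 1 higher and -0.26. Library totals differ from the main comparison in the scale only, and moved the median of all genes up by 0.129. The other settings differ in the genes taken in, the scale or the tool, and the cause of each of their moves was not tested.

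Single RAB genes near 0 changed sign, none of them called in the main comparison except RAB11B, at 0.02 with library totals. With library totals RAB5B was at 0.08, RAB18 at 0.08, RAB5A at 0.06, RAB22A at 0.11, RAB38 at 0.09, RAB3D at 0.02, RAB40C at 0.07 and RAB9B at 0.03. With quantile normalization RAB5B was at 0.09, RAB18 at 0.06, RAB5A at 0.01, RAB22A at 0.05 and RAB38 at 0.03. With the minimum of 5 CPM RAB5B and RAB18 were at 0.00, RAB22A at 0.03 and RAB38 at 0.01. Without 1 replicate RAB22A reached 0.01, RAB38 0.01, RAB40C 0.03 and RAB4A -0.04 and -0.02. Calls were gained with library totals by RAB5B, RAB11A, RAB29 (0.18), RAB4A (0.14), RAB6B (0.17), RAB24 (0.23), RAB43 (0.43) and RAB26 (0.52), and with quantile normalization by RAB5B, RAB11A, RAB29 (0.14), RAB36 (-0.40) and RAB19 (-0.39). RAB36 also gained one without control replicate 2 (-0.38). Leaving out each replicate in turn gave 5 to 7 RAB genes higher, 22 to 25 lower and a median of -0.18 to -0.14. By step the medians ran from 0.00 to 0.04 (ER and Golgi, 3 to 4 higher, 4 to 5 lower), -0.17 to -0.12 (early), -0.14 to -0.08 (recycling, 2 to 4 lower, with 2 without OTUD1 siRNA replicate 2), -0.36 to -0.22 (late), -0.30 to -0.23 (secretion, 0 to 1 higher, with 0 without control replicate 3 or OTUD1 siRNA replicate 1) and -0.51 to -0.46 (remaining genes). Prenylation had 1 to 3 higher (median -0.16 to -0.09), exchange factors 20 to 24 higher and 10 to 12 lower (0.13 to 0.17), GTPase-activating proteins 8 to 12 lower (-0.01 to 0.07, negative without control replicate 2) and effectors 15 to 18 higher and 15 to 19 lower (-0.01 to 0.05, negative without control replicate 1). The groups share replicate numbers, and deviations of same-numbered libraries correlated at 0.0283, 0.132 and -0.00249. Those of libraries with different numbers correlated at -0.121 to 0.091. No clear pairing by number was seen, but with 3 libraries per group these values cannot exclude one. With the replicate block 7 RAB genes were higher and 24 lower with a median of -0.16, 4484 and 4791 genes were called over the whole table, and no RAB gene's call changed.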
